A study of Mus musculus with 6 samples.

Results

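The cathepsins are proteases of the endosome and lysosome, and 10 mouse genes of the family, Ctsa, Ctsb, Ctsc, Ctsd, Ctse, Ctsh, Ctsk, Ctsl, Ctss and Ctsz, were taken by gene symbol from a table of 54532 genes. The table gives FPKM (fragments per kilobase of gene length, scaled to library size) in 6 RNA-seq libraries of mouse macrophages, 3 from control cells and 3 from cells labelled SAHH-KO. SAHH stands for S-adenosylhomocysteine hydrolase, the Ahcy enzyme, which clears the by-product that methyltransferases make and are inhibited by. The labels give the control cells as shControl and as WT, and the other cells as SAHH-KO and as a knockdown. All 6 libraries came from cells stimulated for 8 h with 2 ng/mL interferon-γ plus 10 ng/mL lipopolysaccharide, so no library shows the cathepsins without this stimulus. The labels describe primary peritoneal macrophages, harvested 4 days after a thioglycollate injection and selected by 6 h of adhesion. Strain, sex, age and whether the replicates of a group were separate animals or cultures are not stated in the labels, so p-values reflect sample-to-sample spread that could be technical alone. The series title places the comparison in a study of SAHH deficiency, clonal haematopoiesis and atherosclerosis.

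Cathepsins are made as inactive precursors, carried to the lysosome largely by mannose 6-phosphate receptors and activated there by cleavage at acid pH. Most are cysteine proteases of the papain fold (cathepsins B, C, F, H, K, L, O, S and Z), cathepsins D and E are aspartic proteases, and cathepsin A is a serine carboxypeptidase. Macrophages use them to break down engulfed protein, to trim the invariant chain from MHC class II molecules, to mature endosomal Toll-like receptors and, when secreted, to cut collagen and elastin in the matrix, as in the atherosclerotic plaque.

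Ahcy, the gene behind the group label, was read at 25.8, 22.6 and 24.4 FPKM in control replicates 1 to 3 and at 5.51, 5.50 and 6.23 FPKM in SAHH-KO replicates 1 to 3, a 4.22-fold lower mean. The reads assigned to genes numbered 15540442 to 17748745 per library. A gene was tested where it reached 1 FPKM in at least 3 of the 6 libraries, with limma on log2(FPKM + 1), and called at a Benjamini-Hochberg adjusted p under 0.05 over all 10362 tested genes. Of these, 53.3% were called, 26.4% as higher and 26.8% as lower in SAHH-KO, so a call is common in this comparison. Of 12 macrophage markers 9 reached 1 FPKM, among them Adgre1, Cd68, Csf1r, Cd14, Lyz2 and Tyrobp, while Mertk had 2 reads in all and Mrc1 reached at most 0.527 FPKM. Gata6, F13a1 and Timd4, from a list of 8 peritoneal macrophage markers, and the macrophage marker Cd163 had 0 reads in all 6 libraries. That list was not split into markers of resident cells and of cells drawn in by thioglycollate. Irf1, a gene induced by interferon-γ, lay at 1.68 ± 0.134 FPKM in the control libraries (SD, n = 3), and Ciita, the class II transactivator, had 0 reads in every library. The deposited scaling sets the middle of the comparison: the median log2 change of all tested genes was -0.01 as deposited, -0.16 with values rescaled to TPM and -0.14 with scaling by assigned reads, and the share of calls that were higher went from 49.6% to 34.0% and 34.2%.

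Of the 10 cathepsins, 9 were tested. Ctse and Ctsl were higher in SAHH-KO, Ctsc, Ctsd and Ctsk were lower, and Ctsa, Ctsb, Ctss and Ctsz did not pass the test, which makes 5 of 9 called. In the same 5 genes the 3 control and 3 SAHH-KO values did not overlap, as in 62.3% of all tested genes, so both counts lie close to the background. The median log2 change of the 9 was 0.00, beside -0.01 over all tested genes. Ctsk fell 4.30-fold and Ctsc 2.57-fold, Ctse rose 1.63-fold, and the fall of Ctsd and the rise of Ctsl were both 1.42-fold.

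Control levels spanned a wide range. Ctsz (933 ± 157 FPKM), Ctsd (857 ± 30.3), Ctsb (764 ± 16.5) and Ctss (607 ± 48.7) stood at the top, followed by Ctsa (194 ± 16.6), Ctsl (166 ± 7.25), Ctsk (102 ± 4.94), Ctsc (34.1 ± 2.28) and Ctse (3.75 ± 0.595), each with its SD over 3 libraries. Only Ctsz and Ctsd overlapped among neighbours of that order. Among the 10362 tested genes ordered by control mean, Ctsz held rank 32, Ctsd 39, Ctsb 46 and Ctss 58. In SAHH-KO the order changed in the middle: Ctsd (602 ± 29.6 FPKM) fell behind Ctsb (734 ± 20.0) and lay with Ctss (618 ± 29.8), and Ctsl (236 ± 33.4) overlapped Ctsa (217 ± 9.97). The deposited length of each member equals all of its exon bases merged, from 1358 for Ctss to 6489 for Ctsl, which lowers the FPKM of a gene whose transcripts leave part of them out.

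**Figure D1:**
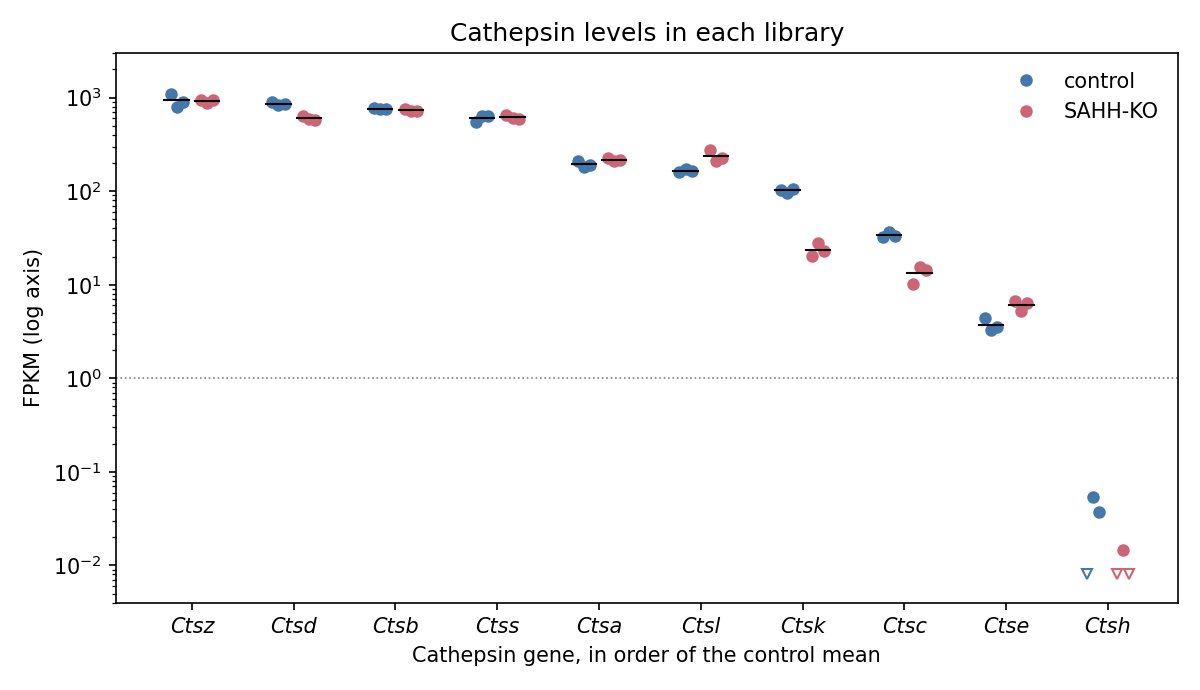
FPKM of each cathepsin (log axis) in the 3 control and 3 SAHH-KO libraries, 1 point per library, with the group mean as a black line and the 1 FPKM limit of the test dotted; open triangles at the foot stand for a value of 0, and no mean is drawn for a group that holds one. Ctsk and Ctsc drop well clear of the control points, Ctsd drops less, Ctsl and Ctse rise, and Ctsh lies far below the limit in every library.

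Summed over the 10 genes the control libraries held 3660 ± 168 FPKM and the SAHH-KO libraries 3373 ± 140.2 FPKM, with overlapping values. Ctsz, Ctsb, Ctsd and Ctss made up 86.4% ± 0.347 of that sum in control and 85.3% ± 0.495 in SAHH-KO. Within it the share of Ctsd went from 23.4% ± 0.245 to 17.8% ± 0.405, that of Ctsk from 2.78% ± 0.115 to 0.705% ± 0.146, and that of Ctsl from 4.54% ± 0.405 to 6.97% ± 0.690. Set against all FPKM of a library, the 10 genes took 1.13% ± 0.0649 in control and 0.926% ± 0.0229 in SAHH-KO. These values did not overlap (1.07% to 1.20% in control, 0.907% to 0.951% in SAHH-KO), so the overlap of the sums depends on the scaling. These shares are descriptions and were not tested.

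**Figure D2:**
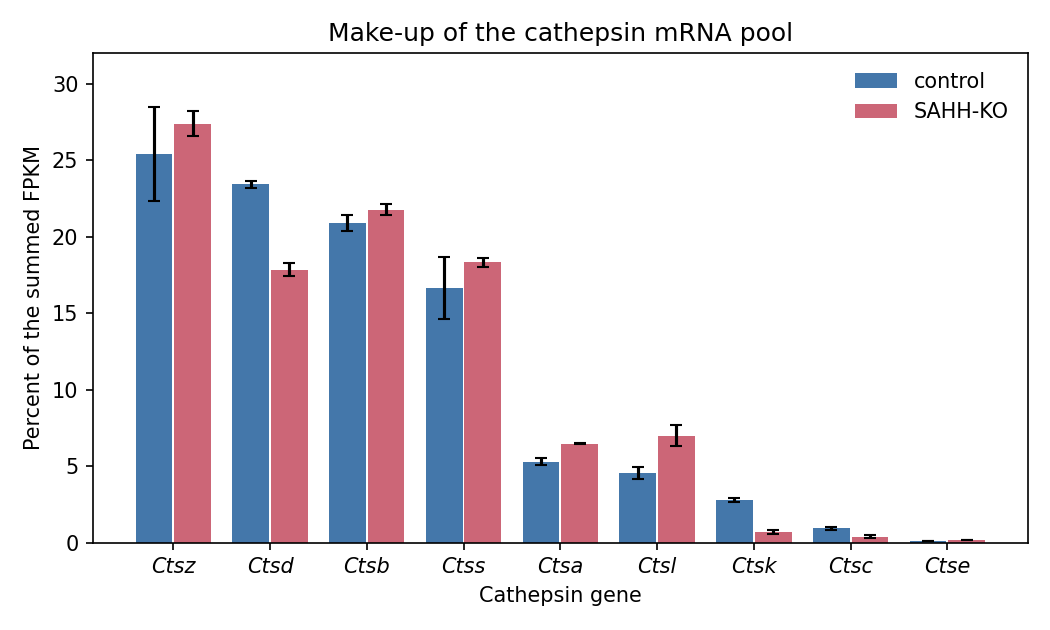
Mean percent of the summed FPKM of the 10 cathepsins taken by each gene in control and SAHH-KO, with the SD over 3 libraries as error bars (Ctsh, under 0.001%, is left out). The share of Ctsd falls from 23.4% to 17.8% and that of Ctsk from 2.78% to 0.705%, while Ctsl goes from 4.54% to 6.97%.

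Among the cysteine endoproteases Ctsk fell most. Cathepsin K is the collagenase of osteoclasts and also an elastase and collagenase of macrophages. Ctsk (ENSMUSG00000028111) lies on chromosome 3 of GRCm38, bases 95499256 to 95509362, plus strand, with 8 exons. It was read at 103, 96.5 and 106 FPKM in control replicates 1 to 3 and at 20.1, 28.0 and 22.9 FPKM in SAHH-KO replicates 1 to 3. All 3 control values were above all SAHH-KO values, and the log2 change was -2.07 (SE 0.118, limma adjusted p = 4.26e-06). On the log2(FPKM + 1) scale only 24 of the 10362 tested genes, Ctsk included, fell at least as far, which is 0.232%. That scale understates changes of low genes, so a low gene with a larger fold fall can rank behind Ctsk. The fall rests on 2390 to 2870 reads per control library and 505 to 645 per SAHH-KO library.

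Ctss, the neighbour of Ctsk on the same strand (ENSMUSG00000038642, chromosome 3, bases 95526786 to 95556403, 8 exons), gave another result. Cathepsin S is the protease that removes the last part of the invariant chain from MHC class II in antigen-presenting cells, and it stays active at neutral pH. Its values were 551, 640 and 631 FPKM in control and 652, 605 and 596 FPKM in SAHH-KO, which overlapped, and the log2 change was 0.03 with a 95% interval from -0.17 to 0.22 (limma adjusted p = 0.813). The genes are 17423 bases apart with no protein-coding gene between them. Arnt, whose product pairs with the aryl hydrocarbon receptor, lies 2015 bases to the left of Ctsk. Arnt rose from 8.24 ± 0.637 to 11.2 ± 0.333 FPKM (limma adjusted p = 0.00388), and Hormad1, 3273 bases to the right of Ctss, had 1 read in all. Within each library the ratio of Ctsk to Ctss was 0.151 to 0.187 in control and 0.0308 to 0.0463 in SAHH-KO.

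The 250 bases before the RefSeq start of these neighbours (GRCm38.p6, plus strand, 5′ to 3′) are printed because the genes lie side by side and only Ctsk was called. The windows are chr3:95498960-95499209 for Ctsk and chr3:95526536-95526785 for Ctss, and capitals mark a match to GAAANNGAA, the core of the element bound by interferon regulatory factors.
Ctsk: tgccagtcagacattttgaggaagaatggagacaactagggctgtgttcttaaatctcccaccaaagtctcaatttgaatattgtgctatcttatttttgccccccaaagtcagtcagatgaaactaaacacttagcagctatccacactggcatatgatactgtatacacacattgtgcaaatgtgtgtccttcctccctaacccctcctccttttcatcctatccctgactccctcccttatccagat
Ctss: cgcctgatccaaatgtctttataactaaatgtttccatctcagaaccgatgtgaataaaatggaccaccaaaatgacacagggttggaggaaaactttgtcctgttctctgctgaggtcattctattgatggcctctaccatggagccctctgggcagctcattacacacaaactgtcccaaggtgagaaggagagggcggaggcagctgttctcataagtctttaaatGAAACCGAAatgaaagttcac
The Ctss match, GAAACCGAA, begins 21 bases before the start, and the Ctsk window holds none on either strand. Of 32851 mouse promoter windows of this length, 7.13% hold GAAANNGAA. A match is a description of the letters and not a bound site.

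Ctsl encodes cathepsin L, a broad endoprotease of the lysosome (ENSMUSG00000021477, chromosome 13, bases 64359337 to 64370890, minus strand). It was read at 159, 173 and 165 FPKM in control and at 273, 209 and 225 FPKM in SAHH-KO. Every SAHH-KO value was above every control value, with replicate 1 the highest, and the log2 change was 0.50 (SE 0.106, limma adjusted p = 0.00446). With TPM scaling it was 0.34 (adjusted p = 0.0178). The ratio of Ctsl to Ctsk within a library went from 1.54 to 1.80 in control to 7.45 to 13.6 in SAHH-KO, so the balance between these endoproteases differed in every library of one group from every library of the other.

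Ctsb encodes cathepsin B, an endoprotease that can also clip dipeptides from the end of a chain (ENSMUSG00000021939, chromosome 14, bases 63122462 to 63145923, plus strand). Its values were 781, 748 and 761 FPKM in control and 757, 722 and 723 FPKM in SAHH-KO. The groups overlapped in replicate 1 of SAHH-KO, and the log2 change was -0.06 with a 95% interval from -0.21 to 0.10 (limma adjusted p = 0.503). Here the scaling decides the call: Ctsb was lower by TPM (-0.22, adjusted p = 0.0196) and by assigned reads (-0.22, adjusted p = 0.0211).

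Of the cysteine exopeptidases Ctsc fell, Ctsz did not pass the test and Ctsh was too low to be tested. Ctsc encodes cathepsin C, the dipeptidyl peptidase that activates the granule serine proteases of neutrophils, mast cells and cytotoxic lymphocytes (ENSMUSG00000030560, chromosome 7, bases 88278085 to 88310888, plus strand). It was read at 32.2, 36.6 and 33.5 FPKM in control and at 10.1, 15.5 and 14.2 FPKM in SAHH-KO. The groups were well apart, and the log2 change was -1.32 (SE 0.145, limma adjusted p = 1.41e-04). On the log2(FPKM + 1) scale, which understates changes of low genes, 1.89% of tested genes fell at least as far. Some genes of neutrophils fell beside it: S100a8, a calcium-binding protein of myeloid cells, went from 4.63 ± 0.486 to 0.189 ± 0.251 FPKM and Mmp8, neutrophil collagenase, from 3.24 ± 0.360 to 0.0165 ± 0.0286 FPKM. The summed level of the 11 neutrophil markers was 9.87 to 10.1 FPKM in control and 4.50 to 5.42 in SAHH-KO, of which 3 reached 1 FPKM in any library and 6 (S100a9, Ly6g, Retnlg, Ngp, Mpo and Cxcr2) had 0 reads in all. Csf3r, the remaining one above 1 FPKM, was higher in SAHH-KO. Mast cell markers summed to at most 0.0221 FPKM and T and NK cell markers to at most 0.0150 in any library. The part of neutrophils in the Ctsc result was not tested, and in bulk RNA fewer cells of a type and less RNA per cell cannot be told apart.

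Ctsz encodes cathepsin Z, a carboxypeptidase also called cathepsin X (ENSMUSG00000016256, chromosome 2, bases 174427493 to 174439039, minus strand). Its mean FPKM was the highest of the members in both groups, but its control range overlapped that of Ctsd. Ctsz was read at 1102, 793 and 905 FPKM in control and at 950, 879 and 942 FPKM in SAHH-KO. The SAHH-KO values lay inside the control range, and the log2 change was 0.00 with a 95% interval from -0.27 to 0.27 (limma adjusted p = 0.988). Ctsh encodes cathepsin H, an aminopeptidase of the lysosome (ENSMUSG00000032359, chromosome 9, bases 90054152 to 90076089, plus strand), and had 8 reads over all 6 libraries. Its reads numbered 0, 4 and 3 in control and 0, 1 and 0 in SAHH-KO, so it was not tested and no fold is given.

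The aspartic cathepsins moved apart. Ctsd encodes cathepsin D, the main aspartic protease of the lysosome (ENSMUSG00000007891, chromosome 7, bases 142375911 to 142388038, minus strand). Its values were 887, 827 and 856 FPKM in control and 635, 593 and 577 FPKM in SAHH-KO. No SAHH-KO library came near the control values, and the log2 change was -0.51 (SE 0.0727, limma adjusted p = 5.67e-04), a 1.42-fold fall. Ctse encodes cathepsin E, an aspartic protease of endosomes rather than lysosomes (ENSMUSG00000004552, chromosome 1, bases 131638306 to 131675505, plus strand). At 4.43, 3.29 and 3.55 FPKM in control and 6.77, 5.20 and 6.42 FPKM in SAHH-KO it stayed far below Ctsd in every library. Its log2 change was 0.58 (SE 0.125, limma adjusted p = 0.00456), from 171 to 235 reads per control library and 251 to 357 per SAHH-KO library.

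Ctsa encodes cathepsin A, the serine carboxypeptidase that also serves as protective protein for the lysosomal sialidase and β-galactosidase (ENSMUSG00000017760, chromosome 2, bases 164832873 to 164841032, plus strand). It was read at 212, 181 and 188 FPKM in control and at 229, 209 and 214 FPKM in SAHH-KO. Control replicate 1 lay among the SAHH-KO values, and the log2 change was 0.17 with a 95% interval from -0.03 to 0.36 (limma adjusted p = 0.128). Without control replicate 1 Ctsa was called higher (log2 change 0.24, adjusted p = 0.0252), and with TPM scaling the change was 0.01. Its partners gave different results: Neu1, the sialidase, fell from 30.1 ± 2.66 to 23.5 ± 0.283 FPKM (limma adjusted p = 0.0103, or 0.0515 without control replicate 3), and Glb1, the β-galactosidase, went from 16.2 ± 1.79 to 19.5 ± 1.41 FPKM (adjusted p = 0.0623).

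Overlapping genes limit 4 of these readings, since the labels do not say whether counting used strand or how reads in shared bases were assigned. In the GENCODE M21 annotation 34.4% of the exon bases of Ctsd are shared with Gm49369 and 26.9% of those of Ctsl with Gm47123 and Gm49230, and these 3 genes had 0 reads in every library. Gm49369 and Gm49230 lie on the same strand as Ctsd and Ctsl, so counting by strand would not separate them, while Gm47123 lies opposite Ctsl. Of the exon bases of Ctsa, 17.4% lie opposite Neurl2 and Pltp, and of those of Ctsb 12.8% lie opposite Fdft1. Pltp, a phospholipid transfer protein, had 303 to 308 reads per control library and 1112 to 1790 per SAHH-KO library, beside 13956 to 17931 reads of Ctsa. Fdft1, squalene synthase, went from 529 to 612 reads in control to 1264 to 1523 in SAHH-KO, beside 66457 to 82316 reads of Ctsb. Ctsc, Ctse, Ctsh, Ctsk and Ctss share no exon base with another gene. The overlapping genes were chosen for their position after the values of the cathepsins were seen.

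The other cathepsin genes of the mouse were mostly silent, but both that could be tested rose. Ctsf, the gene of cathepsin F, a cysteine protease of macrophages able to cut the invariant chain, was read at 5.50, 4.82 and 6.32 FPKM in control and at 26.0, 21.6 and 22.9 FPKM in SAHH-KO. The groups were far apart, and the log2 change was 1.91 (SE 0.110, limma adjusted p = 4.73e-06), a 4.23-fold rise. On the log2(FPKM + 1) scale, which understates changes of low genes, 1.80% of tested genes rose at least as far. Ctso, for cathepsin O, rose from 2.83 ± 0.244 to 4.52 ± 0.405 FPKM (log2 change 0.53, adjusted p = 0.00207). Of the other 11 genes of that list, 9 had 0 reads and Ctsw and Ctsj had 5 and 4 reads over all libraries. The deposited length of Ctsf is 1975 bases, where its merged exons in GENCODE M21 hold 5041, so its FPKM is not set against the levels of the members.

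The RefSeq promoter table held a window for 7 of the 10 members, and it was searched on both strands for CACGTG, the E-box core bound by the MiT/TFE factors that control lysosomal genes. It occurs in 6.02% of the 32851 windows. Windows of Ctsd, Ctsl and Ctsa among the members hold it, as does that of Ctsf. Ctsa has a window for each of 2 starts, and the match is in the one inside the gene (chr2:164833523-164833772, with 164 bases of Ctsa exon), while the one before the annotated gene start (chr2:164832622-164832871) holds none. The Ctsl window (chr13:64370521-64370770) also lies inside its gene, with 48 bases of Ctsl exon. That of Ctsd (chr7:142387828-142388077) holds 211 bases of Ctsd exon, and the match 98 bases before the RefSeq start lies among them. That of Ctsf holds 35 bases of Ctsf exon. The window of Ctsc holds TTCNNNGAA, the gamma-activated sequence, found in 7.02% of windows. Of the genes with a CACGTG match, Ctsd fell, Ctsl and Ctsf rose and Ctsa did not pass the test. The part of these matches in the changes was not tested. Each match is shown in 30 bases on the strand of its gene (GRCm38.p6), in capitals.
Ctsd, chr7:142388048-142388077: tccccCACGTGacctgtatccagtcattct
Ctsd, chr7:142387908-142387937: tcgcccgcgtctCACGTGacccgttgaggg
Ctsl, chr13:64370739-64370768: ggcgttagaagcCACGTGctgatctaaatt
Ctsa, chr2:164833743-164833772: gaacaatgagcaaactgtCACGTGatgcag
Ctsf, chr19:4855074-4855103: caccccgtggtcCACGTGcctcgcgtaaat
Ctsc, chr7:88277838-88277867: cagctttggcgTTCCTTGAAaggcagaggt
The matches begin 245 and 98 bases before the start in Ctsd, 236 in Ctsl, 12 in Ctsa, 79 in Ctsf and 236 in Ctsc. Windows of Ctsk, Ctsz and Ctso hold none of the 3 motifs, and that of Ctss holds the interferon element alone.

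Inhibitors of the cathepsins shifted as well. Of 18 inhibitor genes 4 were tested: 2 rose, 1 fell and 1 did not pass. Cst3 encodes cystatin C, the main secreted inhibitor of the cysteine cathepsins. It was read at 344, 322 and 330 FPKM in control and at 520, 543 and 526 FPKM in SAHH-KO (log2 change 0.67, SE 0.0682, limma adjusted p = 8.95e-05). Cstb encodes cystatin B, which acts inside the cell, and was read at 469, 471 and 525 FPKM in control and at 335, 354 and 333 FPKM in SAHH-KO (log2 change -0.52, SE 0.0762, adjusted p = 6.70e-04). The groups were apart for both, in opposite directions, and the ratio of Cst3 to Cstb was 0.629 to 0.734 in control and 1.54 to 1.58 in SAHH-KO. Cst7, for cystatin F, an inhibitor of cathepsin C in immune cells, rose from 0.720 ± 0.132 to 2.85 ± 0.805 FPKM (log2 change 1.15, adjusted p = 3.79e-04) on 10 to 13 reads per control library and 36 to 62 per SAHH-KO library. Serpinb6a lay at 21.5 ± 2.41 and 21.0 ± 0.382 FPKM (adjusted p = 0.854). The other 14 genes, with Ctla2a and Ctla2b at 0 reads, reached at most 0.721 FPKM in any library. That value belongs to Gm5483, named here after its values were seen, which had 6, 22 and 12 reads in control replicates 1 to 3 and 0 in each SAHH-KO library, and was not tested.

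**Figure D3:**
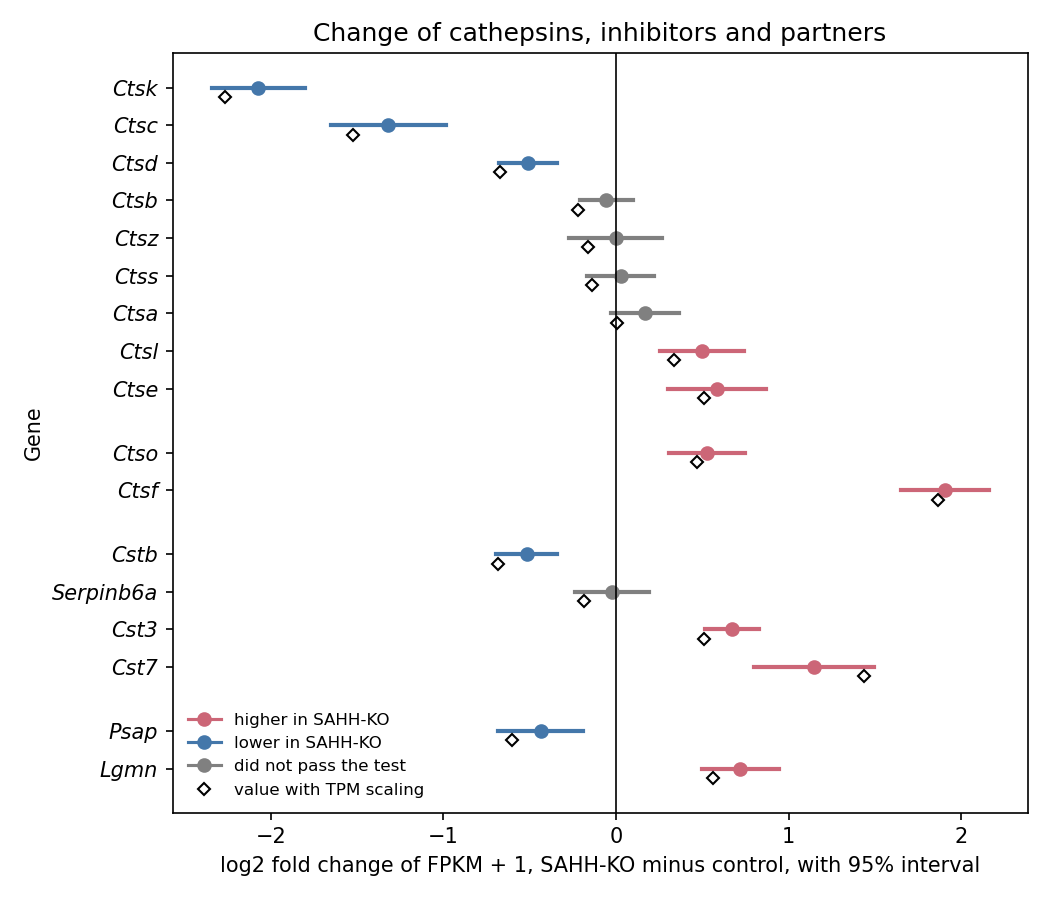
Log2 change of FPKM + 1 (SAHH-KO minus control) with its 95% limma interval for the 9 tested cathepsins, the other 2 cathepsin genes tested, the 4 tested inhibitors and the partners Psap and Lgmn; colour shows the call and open diamonds the value with TPM scaling. Ctsk and Ctsc lie farthest to the left at -2.07 and -1.32, Ctsf farthest to the right at 1.91, and Ctsb, Ctsz, Ctss and Ctsa have intervals across 0.

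Genes that activate, carry or shield the cathepsins moved both ways. Lgmn, legumain, which cuts cathepsins B, H and L into heavy and light chains, was read at 142, 116 and 118 FPKM in control and at 220, 197 and 201 FPKM in SAHH-KO, with the groups apart (log2 change 0.72, limma adjusted p = 4.23e-04). Psap, prosaposin, whose product binds procathepsin D, fell from 328 ± 41.0 to 242 ± 21.2 FPKM (adjusted p = 0.00898), and Lamp1, a membrane protein of the lysosome, fell from 369 ± 23.9 to 285 ± 8.36 FPKM (adjusted p = 0.00396). With Neu1 that made 1 higher and 3 lower of the 6 genes of this list, at a median of -0.10. Of 13 tested genes of lysosomal sorting 3 were higher and 6 lower (median -0.27), or 2 and 7 with either other scaling. Grn, progranulin, which carries prosaposin and cathepsin D to the lysosome, rose from 286 ± 39.7 to 588 ± 61.1 FPKM (adjusted p = 1.55e-04). Gnptab, the enzyme that builds the mannose 6-phosphate tag, fell from 13.3 ± 0.909 to 8.33 ± 1.12 FPKM (adjusted p = 0.00156), Vps35 of the retromer fell from 29.0 ± 5.83 to 18.1 ± 0.632 FPKM (adjusted p = 0.00476), and Gga1, an adaptor for the tagged receptors, rose from 29.1 ± 5.29 to 41.4 ± 0.864 FPKM (adjusted p = 0.00888).

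Among substrates and class II partners 4 of 6 tested genes were higher and 2 lower (median 0.75), or 3 and 2 with TPM or assigned-read scaling. Cd74, the invariant chain that cathepsin S cuts, was read at 122, 114 and 105 FPKM in control and at 669, 399 and 471 FPKM in SAHH-KO (log2 change 2.13, limma adjusted p = 2.38e-05). Cd74 rose 4.52-fold where Ctss did not pass the test. Of the endosomal receptors that cathepsins mature, Tlr9 rose from 1.02 ± 0.408 to 3.55 ± 1.28 FPKM (adjusted p = 0.00220). The more abundant Tlr7, named here after its values were seen, fell from 28.4 ± 6.14 to 19.7 ± 2.41 FPKM (adjusted p = 0.0264), a call lost without control replicate 2 or 3 or SAHH-KO replicate 1 or 3 (adjusted p = 0.0615, 0.0621, 0.0926 and 0.0503) and with no filter on low values (0.0958). Unc93b1, which escorts them to the endosome, rose from 93.6 ± 11.7 to 215 ± 15.8 FPKM (adjusted p = 4.06e-05). Ifi30, the thiol reductase of the lysosome, fell from 205 ± 2.95 to 144 ± 12.8 FPKM (adjusted p = 0.00108). The other 6 genes, with H2-Aa, H2-Eb1 and Ciita at 0 reads, reached at most 0.140 FPKM.

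Of 30 lysosomal hydrolases that are no cathepsins, all tested, 10 were higher and 8 lower (median -0.12), or 7 and 16 with TPM or assigned-read scaling. Acp5, the tartrate-resistant phosphatase that osteoclasts make together with cathepsin K, rose from 2.37 ± 0.525 to 19.2 ± 0.992 FPKM (log2 change 2.59, limma adjusted p = 1.43e-06), opposite in direction to Ctsk. Lipa, the acid lipase that frees cholesterol, fell from 142 ± 11.9 to 77.5 ± 0.712 FPKM (adjusted p = 6.00e-05) and Gusb, β-glucuronidase, from 158 ± 9.56 to 108 ± 1.45 FPKM (adjusted p = 4.17e-04). Of 17 subunits of the V-ATPase, the pump that acidifies the lysosome, 3 were higher and 9 lower (median -0.22). With TPM or assigned-read scaling these counts were 2 and 10. Atp6v0d2 and Tcirg1, both prominent in osteoclasts, rose (log2 changes 0.80 and 0.69), and Atp6v1c1 and Atp6v0e fell (-0.55 and -0.52).

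**Figure D4:**
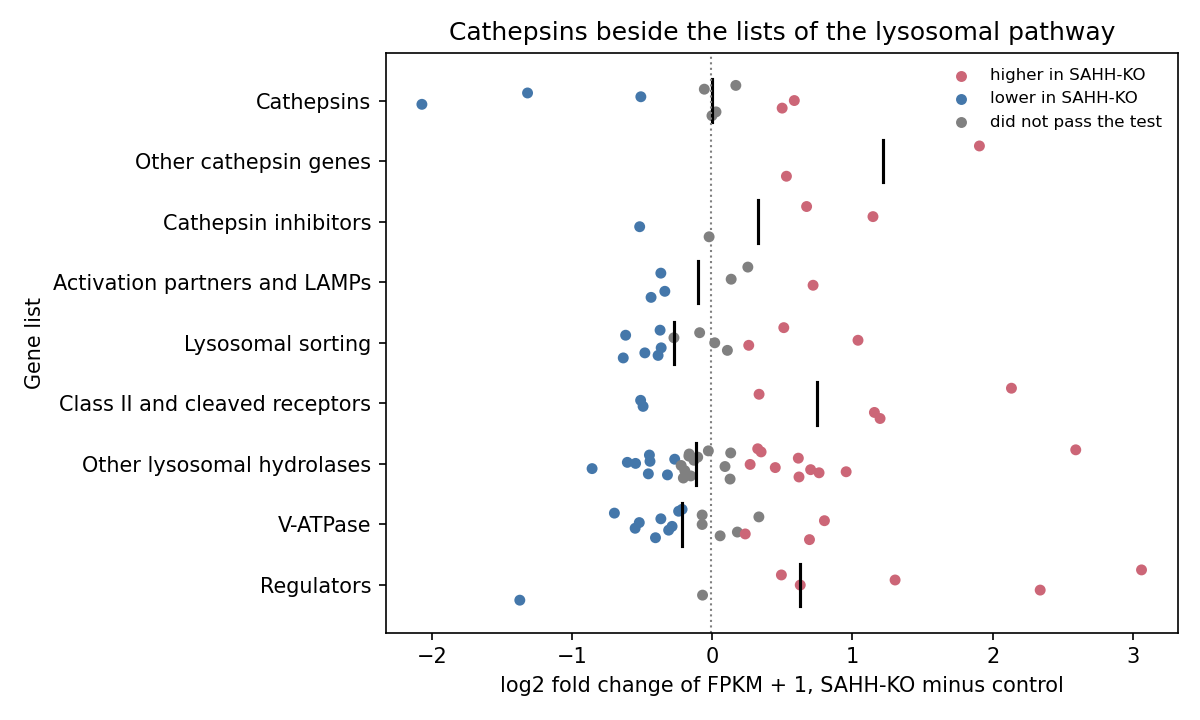
Log2 change of FPKM + 1 (SAHH-KO minus control) for each tested gene of the cathepsins and of 8 lists around them, coloured by call, with the median of each list as a black bar and that of all tested genes dotted. The cathepsins spread from -2.07 to 0.58 around a median of 0.00, and every list but that of the other cathepsin genes holds genes on both sides of 0 in the deposited scaling.

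Of 7 tested regulators with known links to cathepsin or lysosomal genes 5 were higher and 1 lower (median 0.63). Mitf, a MiT/TFE factor that drives Ctsk and Acp5 in osteoclasts, was read at 7.10, 7.97 and 7.11 FPKM in control and at 20.3, 19.2 and 19.6 FPKM in SAHH-KO (log2 change 1.30, limma adjusted p = 6.14e-06). Tfec, the macrophage member of that family, went the other way, from 9.52, 11.2 and 10.8 FPKM to 2.34, 4.06 and 4.11 FPKM (log2 change -1.37, adjusted p = 2.23e-04). Tfe3 lay at 10.4 ± 1.39 and 9.89 ± 1.24 FPKM (adjusted p = 0.658), and Tfeb did not reach the limit for testing. Irf1, an interferon regulatory factor, rose from 1.68 ± 0.134 to 22.0 ± 7.35 FPKM (adjusted p = 6.43e-06). The macrophage markers moved too: their summed level over 12 genes was 8763 to 9076 FPKM in control and 9821 to 11067 FPKM in SAHH-KO, most of it from Lyz2 and Cd14. Of the 9 tested, 5 rose and 4 did not pass. Csf1r lay at 107 ± 8.07 and 91.0 ± 6.62 FPKM (adjusted p = 0.0568), and Mrc1, not tested, at 0.462 ± 0.0621 and 0.134 ± 0.0782 FPKM, with groups apart for both. Their part in the cathepsin results was not tested.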

How the data were processed

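RNA-seq libraries of 3 control and 3 SAHH-KO macrophage samples were compared. The authors deposited 1 table of FPKM values with gene length and coordinates. The submitters' processing notes name STAR, featureCounts, FastQC and Trim Galore, and GRCm38 and mm10 as builds; versions, strand setting and the step from counts to FPKM are not given in the sources used here. FPKM times length gave whole reads for 100% of values above 0, within 0.01 read, and the library sizes behind the deposited values equal median-of-ratios size factors. The floor of 3 reads equals 0.168 to 0.197 FPKM at a length of 1 kb and covers counting error only.

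Genes with at least 1 FPKM in at least 3 libraries were tested with limma 3.58.1 in R 4.3.3 (log2 of FPKM with a pseudocount of 1, intensity trend, group as the only term, two-sided, Benjamini-Hochberg over 10362 genes). Log2 changes are on the log2(FPKM + 1) scale, which understates changes of low genes; folds are ratios of mean FPKM. The test was checked on simulated data. Alternatives were another pseudocount, other filters, TPM and assigned-read scaling, no trend, voom on recovered reads, a replicate block and each library left out. The cathepsins, lists and tests were chosen with earlier results of these data known. Named were all cathepsins, tested inhibitors, Ahcy, fixed partners, the genes flanking Ctsk and Ctss, and up to 4 genes with the smallest p of each other list; 2 of these genes are not reported here. Promoters are from RefSeq (GRCm38.p6); overlaps are from GENCODE M21, which held 54495 of the 54532 gene identifiers, 53585 with the same start and end. The markers counted were of macrophages, peritoneal macrophages, neutrophils, B cells, T and NK cells, dendritic cells, mast cells, eosinophils, fibroblasts and mesothelium.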

Additional observations from a re-analysis of the deposited data

How the results depend on the processing

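Each of the 14 alternatives kept Ctse and Ctsl higher and Ctsc, Ctsd and Ctsk lower. Across them the log2 change of Ctsk ranged from -2.26 to -1.97, of Ctsc from -1.52 to -1.15, of Ctsd from -0.67 to -0.48, of Ctsl from 0.34 to 0.58 and of Ctse from 0.45 to 0.71, and that of Ctsf from 1.76 to 2.08. Ctsz and Ctss were called in none (adjusted p from 0.249 to 0.995 and from 0.161 to 0.925). Ctsb was called in 2, the scalings by TPM and by assigned reads, and Ctsa in 1, without control replicate 1. With each library left out in turn the cathepsins called higher numbered 2 to 3, those called lower 3, all genes called 4248 to 5737 and genes called in the lists around the cathepsins 48 to 60. Whether the replicate numbers pair the samples is not stated. The correlations of same-numbered deviations were 0.0955, 0.101 and -0.0056, and those of differently numbered ones ran from -0.117 to 0.0284. They cannot settle the question, since the deviations of 3 replicates from their own mean depend on each other. With the replicate block 2 cathepsins were higher and 3 lower, and the calls were 5490 over all genes and 60 in the lists.

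Depth limits Ctsh, Ctsw and Ctsj, whose reads lie near the floor, and Cst7. Marker lists other than macrophage and neutrophil summed to low levels in every library: peritoneal macrophage 1.23 to 3.02 FPKM, with 1 gene of 8 at 1 FPKM in any library, dendritic cell 1.07 to 1.40 FPKM, B cell at most 0.268 FPKM, eosinophil at most 0.0402 FPKM, fibroblast at most 0.0439 FPKM, and mesothelium with 0 reads for its 4 genes.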
